A study of Mus musculus with 6 samples.

Results

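Transcripts of 9 ATP-binding cassette (ABC) exporters were followed: Abcc1, Abcc2, Abcc3, Abcc4, Abcc5 and Abcc10 of the multidrug resistance protein family, the P-glycoproteins Abcb1a and Abcb1b, and the half-transporter Abcg2. They were chosen by gene symbol, and all 9 were among the 21853 genes of the deposited table. Messenger RNA was sequenced from C57BL/6J mouse embryonic fibroblasts (MEF) with a labelled age of 12 days, and all 6 libraries shared the xCT knockout. xCT, encoded by Slc7a11, is the cystine importer that feeds glutathione synthesis. In the RCE group 3 libraries came from xCT knockout cells given red clover extract, and in the control group 3 came from xCT knockout cells given water. No library came from cells with intact xCT. Neither the dose and exposure time nor the way the knockout was made are given in the sources used here. The question is which exporter transcripts differ between cells with and without the extract. Nothing in the labels makes the replicates separate cultures, so each p-value refers to the spread among 6 libraries, and that spread may be technical.

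ABC exporters use ATP to move substrates out of the cell. The ABCC proteins carry mainly organic anions, among them glutathione itself, glutathione conjugates made by glutathione S-transferases, glucuronides and sulfates. P-glycoprotein and ABCG2 carry a wide range of lipophilic drugs and plant compounds, and ABCG2 also carries sulfates and urate. In fibroblasts lacking xCT the glutathione pool depends on cysteine obtained in other ways, and ABCC1 is a route by which glutathione leaves cells. Transcript levels do not give the amount or activity of these proteins.

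Promoter windows are shown for Abcc4 and Abcb1b, which had the largest changes of the 6 members tested, and for Abcc5, which did not pass the test. Each is the 250 bases before the annotated start (RefSeq, GRCm38.p6), 5′ to 3′ on the strand of the gene. Capitals mark matches, on either strand, to short motifs: TGACNNNGC (antioxidant response element, the core bound by NRF2), GCGTG (xenobiotic response element, the core bound by the aryl hydrocarbon receptor), ACGTG (hypoxia response element core), GGGCGG (called the GC box, a site for SP1), CCAAT (bound by NF-Y) and TGANTCA (AP-1 site).
Abcc4: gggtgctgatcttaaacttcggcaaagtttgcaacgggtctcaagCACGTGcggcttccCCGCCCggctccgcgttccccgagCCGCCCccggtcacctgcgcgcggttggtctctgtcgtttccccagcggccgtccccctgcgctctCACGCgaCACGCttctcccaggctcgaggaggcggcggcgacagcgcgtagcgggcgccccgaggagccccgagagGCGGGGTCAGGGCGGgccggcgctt
Abcb1b: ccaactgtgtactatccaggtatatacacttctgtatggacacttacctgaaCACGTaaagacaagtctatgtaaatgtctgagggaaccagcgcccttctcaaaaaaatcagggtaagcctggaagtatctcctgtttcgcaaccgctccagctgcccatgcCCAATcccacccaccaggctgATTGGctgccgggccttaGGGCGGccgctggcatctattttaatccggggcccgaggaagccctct
Abcc5: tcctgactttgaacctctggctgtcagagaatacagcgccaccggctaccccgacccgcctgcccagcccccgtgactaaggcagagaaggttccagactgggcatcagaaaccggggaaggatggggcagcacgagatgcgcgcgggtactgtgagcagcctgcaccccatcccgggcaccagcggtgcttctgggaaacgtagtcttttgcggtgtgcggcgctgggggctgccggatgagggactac
The Abcc4 window lies at chr14:118706220-118706469 on the minus strand, the Abcb1b window at chr5:8797897-8798146 on the plus strand and the Abcc5 window at chr16:20426395-20426644 on the minus strand. The Abcc4 window held 1 antioxidant response element match, 2 xenobiotic response element matches and 3 GC boxes. Its 2 hypoxia response element matches overlap, since they are the same CACGTG read on both strands. The Abcb1b window held 1 hypoxia response element match, 1 GC box and 2 CCAAT boxes, and the Abcc5 window held none of the 6 motifs. GC content was 72.0% in the Abcc4 window, 52.8% in the Abcb1b window and 64.0% in the Abcc5 window, where the median of all 32851 windows was 52.4%.

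The table of promoters held 11 windows for 7 of the 9 members, several of which have more than 1 annotated start, and none for Abcc1 and Abcc3. The only Abcb1a window, chr5:8566841-8567090, lies far before the GENCODE start of that gene at 8660077. The bases just after that window were not found near the start of any GENCODE transcript of Abcb1a, so it may not be its promoter. The antioxidant response element core was found in 4 of these 11 windows, of Abcc2, Abcc4 and Abcc10, and in 10.2% of all 32851 windows. The xenobiotic response element core was in 1 of the 11 windows and in 28.2% of all windows. The hypoxia response element core was in 2 of 11 and 16.6% of all, the GC box in 6 of 11 and 32.7% of all, the CCAAT box in 2 of 11 and 33.8% of all, and the AP-1 site in 0 of 11 and 6.7% of all. The GC box was found in windows of Abcc4, Abcb1b, Abcc10 and Abcg2, of which Abcc10 and Abcg2 did not pass the test. Abcc4 had another window, not shown, with a GC content of 47.6%. That window held 1 antioxidant response element match and no match to the other motifs. These matches describe letters in a window and are no measure of binding.

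The deposited values are FPKM, which divide fragments by transcript length and by library depth, so levels of different genes can be set side by side. Steps between low values gave depths of 45750000 to 59000000 fragments in RCE libraries and 49450000 to 54250000 in control libraries. Slc7a11 was near the floor in all libraries, at 0.007 to 0.017 FPKM with the extract and 0.013 to 0.037 FPKM in control (exact 2-sided permutation p = 0.2, while 3 against 3 libraries cannot go below 0.1). All 10 fibroblast markers reached 1 FPKM, with a summed level of 3820 to 3920 FPKM with the extract and 4140 to 4270 FPKM in control. Of these markers 2 were lower with the extract and 0 higher in the limma fit described below. They were Pdgfrb (limma adjusted p = 0.0223) and Dcn (0.0481, close to the threshold of 0.05). Across all genes tested, 6.77% were lower and 17.6% higher. The 6 epithelial, 5 endothelial, 4 hepatocyte, 4 neural and 4 erythroid markers, each type summed separately, reached at most 2.89 FPKM per type in any library. The macrophage marker Lyz2 was lower with the extract, at 7.83 to 9.07 FPKM with the extract and 11.3 to 11.7 FPKM in control, and the 5 macrophage markers summed to 11.2 to 12.6 FPKM with the extract and 15.3 to 16.4 FPKM in control. Of the other macrophage markers Cd68 overlapped between groups, at 2.494 to 3.655 FPKM with the extract and 3.005 to 3.756 FPKM in control. Csf1r was at 0.418 to 0.492 FPKM with the extract and 0.52 to 0.711 FPKM in control. Ptprc stayed at or under 0.079 FPKM and Adgre1 at or under 0.25 FPKM. The adipocyte marker Fabp4 was higher, at 8.94 to 12.9 FPKM with the extract and 3.19 to 4.45 FPKM in control, while Adipoq and Plin1 stayed at or under 0.026 FPKM. The muscle marker Des was higher as well, at 49.5 to 57.8 FPKM with the extract and 37.7 to 44.3 FPKM in control, with Myod1 at 0 in every library and Myog at or under 0.015 FPKM. The part of these cell markers in the exporter values was not tested. In bulk RNA, fewer cells of a type and less RNA per cell cannot be told apart.

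With red clover extract 3 of the 6 exporters tested rose, Abcc4, Abcb1b and Abcc1, and 0 fell, in limma on log2(FPKM + 1) over 10870 genes with Benjamini-Hochberg adjustment. Across all genes tested, 17.6% were higher and 6.77% lower by the same rule, and 0 exporters were lower at an unadjusted p under 0.05 as well. Median-of-ratios scaling and quantile normalization each left 2 exporters higher and 0 lower, where 8.5% and 7.22% of all genes were higher and 10% and 7.88% lower. For 4 of the 6 tested members all RCE libraries lay above all control libraries, which held for 31.2% of all genes, and 42.2% did not overlap in either direction. The increases were modest, with ratios of mean FPKM of 1.34 for Abcc4, 1.35 for Abcb1b and 1.21 for Abcc1. Abcc10 and Abcg2 had higher means with the extract but did not pass, and Abcc5 had nearly the same mean in both groups. Abcc2, Abcc3 and Abcb1a had means under 1 FPKM and were not in that fit. The median change of the 6 tested members was 0.26, and that of all genes tested was 0.08. With median-of-ratios scaling, which centres the libraries on one another by construction, the median of all genes was 0.00 and that of the 6 tested members 0.18. All log2 changes are RCE minus control on the log2(FPKM + 1) scale, which understates the change of low genes.

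Replicate 1 of both groups stands apart from replicates 2 and 3. Same-numbered libraries deviated together across genes, but numbers 2 and 3 correlated more crosswise than with their own number, so the data do not pair 2 with 2 or 3 with 3. With replicate number as a block, 5 of the 6 tested members were higher and 0 lower, adding Abcc10 and Abcg2, where 46.6% of all genes were higher and 15.9% lower. Without both libraries numbered 1, the counts were also 5 higher and 0 lower, where 40.1% of all genes were higher and 13.6% lower.

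**Figure D1:**
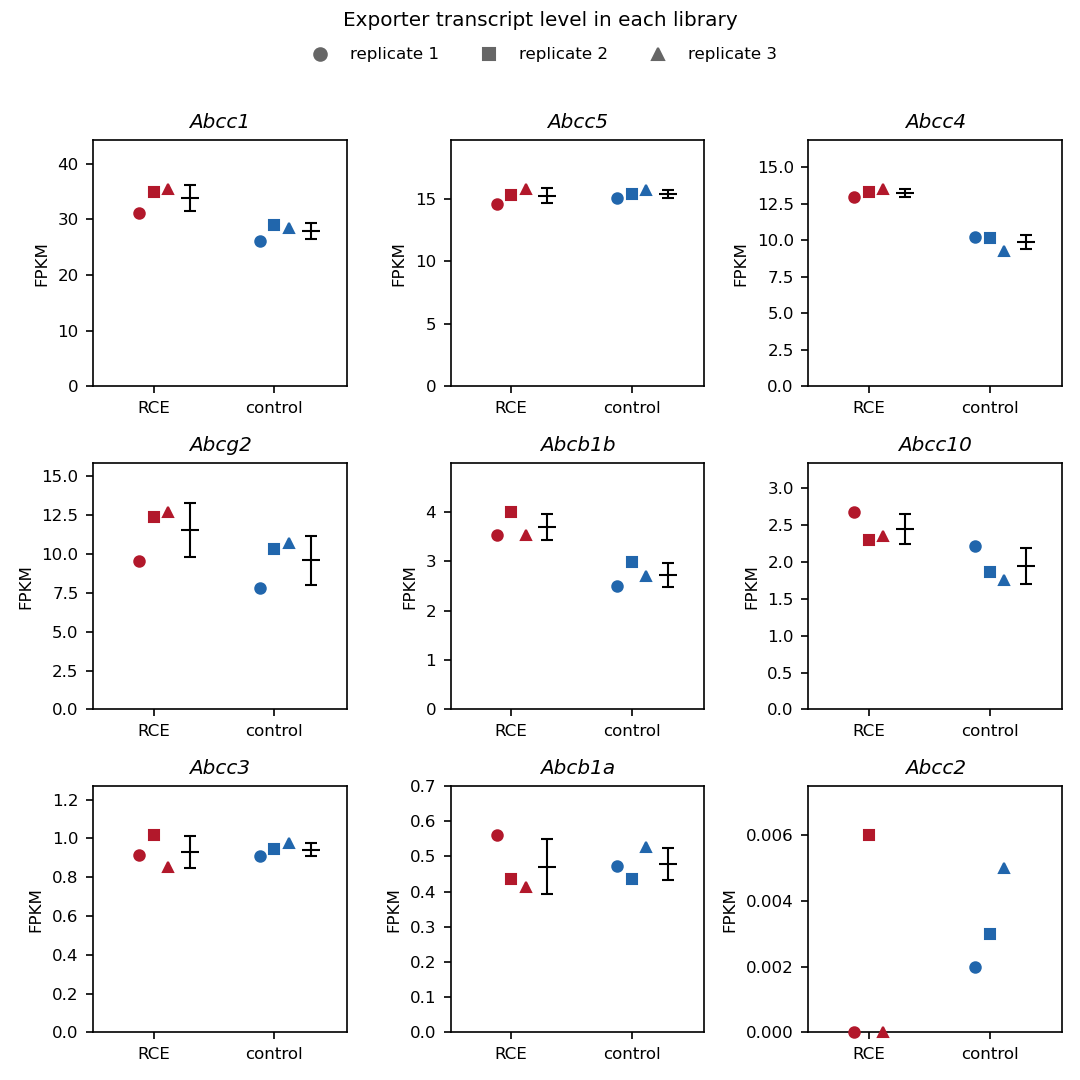
Transcript level in FPKM (y axis, from 0) of each exporter in the 3 RCE and the 3 control libraries, with the replicate number as marker shape. Black bars give the mean and SD of 3 libraries, except for Abcc2, which is listed at 0 in 2 libraries. For Abcc1, Abcc4, Abcb1b and Abcc10 the RCE points lie above all control points.

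Abcc1 (ENSMUSG00000023088, chromosome 16, 14361558 to 14475737 on mm10) encodes MRP1, the broadly expressed exporter of glutathione conjugates, oxidised glutathione and leukotriene C4. Of the 9 exporters it was the most abundant in all 6 libraries, at 31.1, 35.0 and 35.4 FPKM in RCE replicates 1, 2 and 3, against 26.2, 29.0 and 28.4 FPKM in control replicates 1, 2 and 3. The lowest RCE library lay above the highest control library, and the RCE library was higher in 3 of 3 same-numbered pairs. Means were 33.8 ± 2.37 FPKM with the extract and 27.9 ± 1.49 FPKM in control (SD, n = 3 each). The log2 change was 0.27 (SE 0.07, limma adjusted p = 0.0335). Median-of-ratios scaling ended the call (0.19, adjusted p = 0.0839). So did leaving out any single library other than RCE replicate 1, with adjusted p of 0.0717 without control replicate 1, 0.0738 without control replicate 2 and 0.0905 without control replicate 3. The adjusted p was 0.124 without RCE replicate 2 and 0.112 without RCE replicate 3. With the replicate block the adjusted p was 9.51e-05.

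Abcc4 (ENSMUSG00000032849, chromosome 14, 118482692 to 118706219) encodes MRP4, which exports cyclic nucleotides, prostaglandins, sulfated steroids and, together with glutathione, bile acids. It had the smallest p and the largest change of the tested members. Its level was 13.0, 13.3 and 13.5 FPKM in RCE replicates 1, 2 and 3, against 10.2, 10.1 and 9.30 FPKM in control replicates 1, 2 and 3. The gap between the groups was wider than the range within either. Means were 13.2 ± 0.263 FPKM with the extract and 9.88 ± 0.501 FPKM in control (SD, n = 3 each), with a log2 change of 0.39 (SE 0.05, 95% interval 0.27 to 0.51, limma adjusted p = 0.00355). The call of Abcc4 held when any single library was left out, with adjusted p between 0.00732 and 0.0245, and under the other settings tried. Of the 10870 genes tested, 293 had a larger positive change.

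Abcc5 (ENSMUSG00000022822, chromosome 16, 20331303 to 20426394) encodes MRP5, an exporter of cyclic nucleotides and nucleotide analogues. It was the next most abundant member after Abcc1, at 14.6, 15.3 and 15.8 FPKM in RCE replicates 1, 2 and 3 and 15.1, 15.4 and 15.7 FPKM in control replicates 1, 2 and 3. The groups overlapped throughout. The log2 change was -0.01 (SE 0.05, limma adjusted p = 0.852), with a 95% interval of -0.12 to 0.09, and its sign turned when RCE replicate 1 was left out (0.01).

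Abcc10 (ENSMUSG00000032842, chromosome 17, 46303221 to 46328352) encodes MRP7, which confers resistance to taxanes in transfected cells. Its level was 2.67, 2.30 and 2.36 FPKM in RCE replicates 1, 2 and 3, against 2.22, 1.87 and 1.75 FPKM in control replicates 1, 2 and 3. Replicate 1 was the highest in both groups, and the groups did not overlap, but the margin between RCE replicate 2 and control replicate 1 was small. The log2 change of 0.23 (SE 0.07) missed the threshold (limma adjusted p = 0.0696). It passed with the replicate block (adjusted p = 0.00175) and without control replicate 1 (0.29, adjusted p = 0.029). Exons of Abcc10 overlap those of Dlk2 on the other strand, and whether counting used strand was not given in the sources used here, so reads of these genes may not have been told apart.

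Abcc3 and Abcc2, exporters of glucuronides and glutathione conjugates that are best known from liver and other epithelia, were low. Abcc3 (ENSMUSG00000020865, chromosome 11, 94343295 to 94392997) was at 0.914, 1.016 and 0.854 FPKM in RCE replicates 1, 2 and 3, and 0.910, 0.944 and 0.974 FPKM in control replicates 1, 2 and 3. The groups overlapped (2-sided exact permutation test of mean FPKM, p = 0.9). Abcc2 (ENSMUSG00000025194, chromosome 19, 43782192 to 43840740), which exports bilirubin glucuronides into bile, was listed at 0, 0.006 and 0 FPKM in RCE replicates 1, 2 and 3, and 0.002, 0.003 and 0.005 FPKM in control replicates 1, 2 and 3. On its longest coding transcript 1 fragment is worth 0.0021 to 0.0027 FPKM, so at most about 3 fragments lay behind any of these values. A difference in Abcc2 was not detectable at this depth.

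Mice have a pair of genes, Abcb1a and Abcb1b, for the drug exporter P-glycoprotein, where humans have ABCB1 alone. Abcb1b (ENSMUSG00000028970, chromosome 5, 8798147 to 8866315) was at 3.54, 3.99 and 3.53 FPKM in RCE replicates 1, 2 and 3, against 2.49, 2.99 and 2.69 FPKM in control replicates 1, 2 and 3. The groups did not overlap, and replicate 2 was the highest in both. Means were 3.69 ± 0.265 FPKM with the extract and 2.72 ± 0.249 FPKM in control (SD, n = 3 each), with a log2 change of 0.33 (SE 0.07, limma adjusted p = 0.016). This call ended with quantile normalization (0.23, adjusted p = 0.057) and without control replicate 3 (adjusted p = 0.0624) or RCE replicate 2 (0.0631). Abcb1a (ENSMUSG00000040584, chromosome 5, 8660077 to 8748575), the copy known from brain capillaries and gut, was at 0.560, 0.437 and 0.414 FPKM in RCE replicates 1, 2 and 3, and 0.472, 0.437 and 0.526 FPKM in control replicates 1, 2 and 3. Its groups overlapped (2-sided exact permutation test, p = 0.9).

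The level of Abcb1b was 6.31, 9.13 and 8.52 times that of Abcb1a in RCE replicates 1, 2 and 3, and 5.28, 6.84 and 5.12 times in control replicates 1, 2 and 3. RCE replicate 1 lay below control replicate 2 in this ratio, so the groups overlapped. The coding sequences of the 2 copies are 87.98% identical over 3819 aligned bases, with a longest identical run of 338 bases. Of all windows of 50 bases in their longest coding transcripts, 16.98% of those of Abcb1a and 18.3% of those of Abcb1b occur in another gene, Abcb4 or the other copy. Fragments whose sequenced bases lie wholly within these stretches cannot be assigned by sequence. How they were split was not given in the sources used here, so both levels are uncertain. The sum of both copies was 4.10, 4.43 and 3.94 FPKM in RCE replicates 1, 2 and 3, against 2.96, 3.42 and 3.22 FPKM in control replicates 1, 2 and 3, without overlap. For 31.2% of all genes tested, all RCE libraries lay above all control libraries. Abcb1b made up most of the sum of both copies in every library, so the sum largely repeats the values of Abcb1b. That sum is uncertain too, since the copies differ in transcript length and Abcb4 also shares windows with them. Exons of Abcb1a and Abcb1b also overlap antisense gene models, Gm42686 and Gm5106.

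Abcg2 (ENSMUSG00000029802, chromosome 6, 58584523 to 58695676) encodes BCRP, an exporter of sulfated compounds, urate, porphyrins and many plant flavonoids. Its level was 9.56, 12.4 and 12.7 FPKM in RCE replicates 1, 2 and 3, against 7.79, 10.3 and 10.7 FPKM in control replicates 1, 2 and 3. Replicate 1 was the lowest in both groups, and RCE replicate 1 lay below control replicates 2 and 3, so the groups overlapped. Means were 11.5 ± 1.71 FPKM with the extract and 9.60 ± 1.58 FPKM in control (SD, n = 3 each). The log2 change of 0.24 (SE 0.14, 95% interval -0.10 to 0.59) did not pass (limma adjusted p = 0.266). Within same-numbered pairs the RCE library was higher by 1.78, 2.06 and 1.98 FPKM, and with the replicate block the adjusted p was 0.000231. Without both libraries numbered 1 it was 0.0014. For Abcg2 the differences within pairs thus varied less than the replicates within either group.

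**Figure D2:**
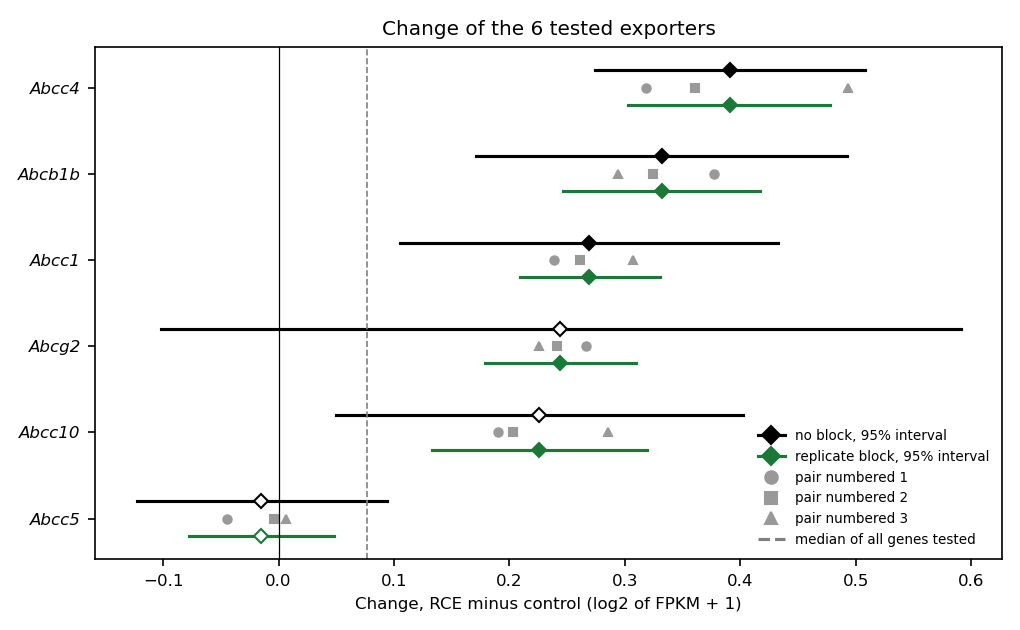
Log2 change of FPKM + 1, RCE minus control (x axis), of the 6 tested exporters, with 95% intervals from the fit without (black) and with (green) the replicate block. Grey points are the 3 same-numbered pairs, filled diamonds passed an adjusted p of 0.05 and the dashed line is the median of all genes tested (0.08). The grey points of all members but Abcc5 lie to the right of that line.

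By group mean the order of levels was the same in both groups: Abcc1, Abcc5, Abcc4, Abcg2, Abcb1b, Abcc10, Abcc3, Abcb1a and Abcc2. Neighbours in that order did not overlap, except Abcc4 and Abcg2 in control libraries, where Abcc4 at 9.30 to 10.2 FPKM and Abcg2 at 7.79 to 10.7 FPKM overlapped and Abcc4 was the higher in 1 of 3 libraries. Summed over the 9 members, the level was 75.9, 83.7 and 84.5 FPKM in RCE replicates 1, 2 and 3, against 65.4, 71.1 and 70.0 FPKM in control replicates 1, 2 and 3. Abcc1 made up 41.0 to 41.9% of that sum with the extract and 40.1 to 40.8% in control.

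Ratios within a library do not depend on the scaling between libraries. Abcc5 was taken as the denominator after its values were seen, so these ratios are a description. The ratio of Abcc4 to Abcc5 was 0.890, 0.867 and 0.856 in RCE replicates 1, 2 and 3, against 0.677, 0.658 and 0.593 in control replicates 1, 2 and 3. The ratio of Abcc1 to Abcc5 was 2.13 to 2.28 with the extract and 1.74 to 1.89 in control. For Abcb1b the ratio was 0.224 to 0.260 with the extract and 0.165 to 0.194 in control, and for Abcc10 it was 0.150 to 0.183 and, in control, 0.112 to 0.147. These 4 ratios were without overlap between groups, with all RCE libraries above all control libraries, as were the ratios to Abcc5 of 33.4% of all other genes tested. The ratio of Abcg2 (0.656 to 0.807 with the extract and 0.516 to 0.681 in control) overlapped. A ratio within a library does not tell whether Abcc5 itself was constant.

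**Figure D3:**
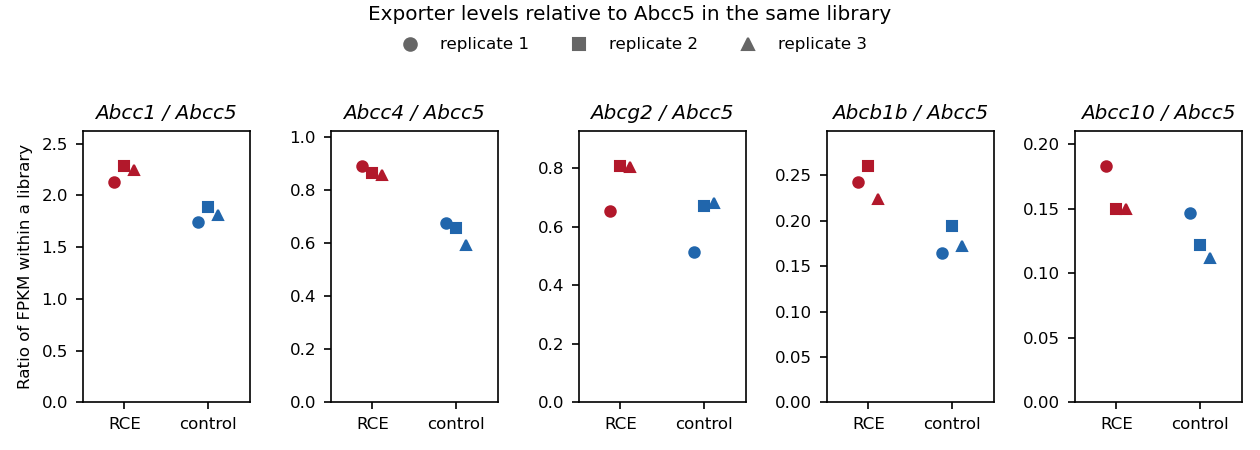
Ratio of the FPKM of 5 exporters to that of Abcc5 in the same library (y axes, from 0), for RCE and control libraries, with the replicate number as marker shape. The ratios of Abcc1, Abcc4, Abcb1b and Abcc10 are higher in every RCE library than in every control library, and those of Abcg2 overlap.

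By the mean absolute difference of centred log2(FPKM + 1) over the 6 libraries, the 5 genes closest to Abcc4 were Hmmr, Sall2, Tmem177, Ncapg and Zfp14. Their distances from Abcc4 were 0.0127 for Hmmr, 0.0154 for Sall2, 0.0163 for Tmem177, 0.0177 for Ncapg and 0.0194 for Zfp14, where the median over all genes tested was 0.1675. Hmmr, a hyaluronan receptor and spindle protein, was at 3.38, 3.43 and 3.38 FPKM in RCE replicates 1, 2 and 3, against 2.48, 2.46 and 2.23 FPKM in control replicates 1, 2 and 3.

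Other ABC transporters, a list of 44 genes of which 20 reached a mean of 1 FPKM, gave 5 higher and 0 lower. Among all genes tested 17.6% were higher and 6.77% lower. The median change of the list was 0.09, and that of all genes tested was 0.08. Abca1, which exports cholesterol and phospholipid to apolipoproteins, was at 7.43 ± 0.8 FPKM with the extract and 4.55 ± 0.342 FPKM in control (SD, n = 3 each, log2 change 0.60, limma adjusted p = 0.00511). Tap1, a peptide transporter of antigen presentation, was at 5.67 ± 0.266 FPKM with the extract and 3.62 ± 0.331 FPKM in control (0.53, adjusted p = 0.00329). Abcb6, which carries porphyrins, changed by 0.33 (adjusted p = 0.0167) and Abca8b by 0.28 (adjusted p = 0.0167). Abcb6 missed the threshold without control replicate 2 (adjusted p = 0.0518), RCE replicate 2 (0.0722) or RCE replicate 3 (0.0642). Abca8b missed it without control replicate 2 (0.0522) or 3 (0.0594), without RCE replicate 2 (0.0713) or 3 (0.0648), and with quantile normalization (0.0803). With the replicate block 10 of the 20 were higher and 2 lower, where 46.6% of all genes were higher and 15.9% lower. With median-of-ratios scaling 4 were higher and 0 lower, where 8.5% of all genes were higher and 10% lower.

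The counts of the lists below stand against 17.6% higher and 6.77% lower among all genes tested, 46.6% and 15.9% with the block, and 8.5% and 10% with median-of-ratios scaling. Of 29 glutathione S-transferases and related enzymes 16 were tested, and 3 were higher and 3 lower (10 and 3 with the block, 1 and 3 with median-of-ratios scaling). The microsomal transferase Mgst3 was at 18.2 ± 0.538 FPKM with the extract and 26.5 ± 2.04 FPKM in control (SD, n = 3 each, log2 change -0.51, limma adjusted p = 0.00363). Gstm4, a mu class transferase, changed by 0.29 (adjusted p = 0.00873), Gstcd by 0.28 (0.0182) and the omega class Gsto1 by -0.24 (0.0213). Gstcd missed the threshold under median-of-ratios scaling (0.0535) and quantile normalization (0.0986), and without control replicate 2 (0.0669) or RCE replicate 2 (0.0758). The call of Gsto1 ended with quantile normalization (0.196) and without each library but RCE replicate 1 (0.051 to 0.0872).

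Of 32 genes of glucuronide and sulfate conjugation 13 were tested, and 1 was higher and 2 lower (8 and 3 with the block, 1 and 2 with median-of-ratios scaling). Ugdh, which makes UDP-glucuronic acid, the sugar donor of glucuronidation and of hyaluronan, was at 60.8 ± 5.83 FPKM with the extract and 113 ± 11.2 FPKM in control (SD, n = 3 each, log2 change -0.88, limma adjusted p = 0.00257). Papss2, which makes the sulfate donor, changed by -0.19 (adjusted p = 0.019), and missed the threshold without control replicate 2 (0.0774) or 3 (0.061) and without RCE replicate 2 (0.0925) or 3 (0.057). The glucuronosyltransferase Ugt1a7c changed by 0.28 (adjusted p = 0.00811). The 7 Ugt1a genes tested, with changes between 0.24 and 0.28, share their last exons, so they are not separate measurements.

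Of 18 genes of glutathione synthesis and breakdown 14 were tested, and 3 were higher and 2 lower (6 and 4 with the block, 2 and 2 with median-of-ratios scaling). The median change was 0.02, and -0.04 with that scaling. Gclc, the catalytic subunit of glutamate-cysteine ligase, was lower, at 30.9, 28.0 and 28.6 FPKM in RCE replicates 1, 2 and 3, against 42.3, 39.0 and 39.6 FPKM in control replicates 1, 2 and 3 (log2 change -0.45, limma adjusted p = 0.00364). Gclm, its modifier subunit, was higher, at 36.2, 32.9 and 34.2 FPKM in RCE replicates 1, 2 and 3, against 28.2, 28.3 and 26.0 FPKM in control replicates 1, 2 and 3 (0.32, adjusted p = 0.0115). Dpep1, a dipeptidase that cleaves cysteinyl-glycine, changed by 0.42 (adjusted p = 0.00518). Ggct changed by -0.22 (0.0165), and missed the threshold without control replicate 2 (0.057) or 3 (0.0617) and without RCE replicate 2 (0.0766).

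Of 30 other carriers of conjugates, drugs and nucleosides 11 were tested, and 1 was higher and 4 lower (3 and 4 with the block, 0 and 4 with median-of-ratios scaling, median -0.05). Ank, through which ATP and pyrophosphate leave the cell, had the largest change of the list, at 28.9 ± 0.253 FPKM with the extract and 59.8 ± 0.668 FPKM in control (SD, n = 3 each, log2 change -1.03, limma adjusted p = 5.18e-05). The nucleoside transporter Slc29a1 changed by -0.26 (adjusted p = 0.00861, and 0.0518 without RCE replicate 2), the organic anion carrier Slco3a1 by -0.22 (0.0167) and the major vault protein Mvp by -0.21 (0.0287). Slco3a1 missed the threshold without control replicate 2 (0.0667) or 3 (0.0644) and without RCE replicate 2 (0.0799) or 3 (0.0556). Mvp missed it without control replicate 2 (0.105) or 3 (0.0872) and without RCE replicate 2 (0.0859) or 3 (0.0672).

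Of a list of transcription factors known to act on these exporters, which also holds Keap1, a regulator of NRF2, 19 genes were tested. Of these, 3 were higher and 4 lower (5 and 7 with the block, 2 and 6 with median-of-ratios scaling, median -0.01). Maff, a small MAF partner of NRF2, was at 12.5 ± 0.477 FPKM with the extract and 25.4 ± 0.6 FPKM in control (SD, n = 3 each, log2 change -0.96, limma adjusted p = 0.000102), and Mafk changed by -0.45 (adjusted p = 0.00277). Pparg, the fat cell nuclear receptor, changed by 0.34 (0.00652) and Sp1, which binds GC boxes, by 0.25 (0.00698). Named here after their values were seen, Nfe2l2, which encodes NRF2, changed by -0.42 (0.0136), Ahr by -0.30 (0.00718) and Trp53 by 0.25 (0.0399). Trp53 missed the threshold with median-of-ratios scaling (0.19). Of 28 NRF2 targets 24 were tested, some of them also in the lists above, and 6 were higher and 2 lower (17 and 3 with the block, 4 and 2 with median-of-ratios scaling, median 0.17). Nqo1, a quinone reductase, was at 117 ± 13.8 FPKM with the extract and 72.4 ± 6.52 FPKM in control (SD, n = 3 each, 0.68, adjusted p = 0.00738), and Blvrb changed by 0.41 (0.00342). The 2 lower NRF2 targets were Ugdh (-0.88) and Gclc (-0.45), both described above.

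**Figure D4:**
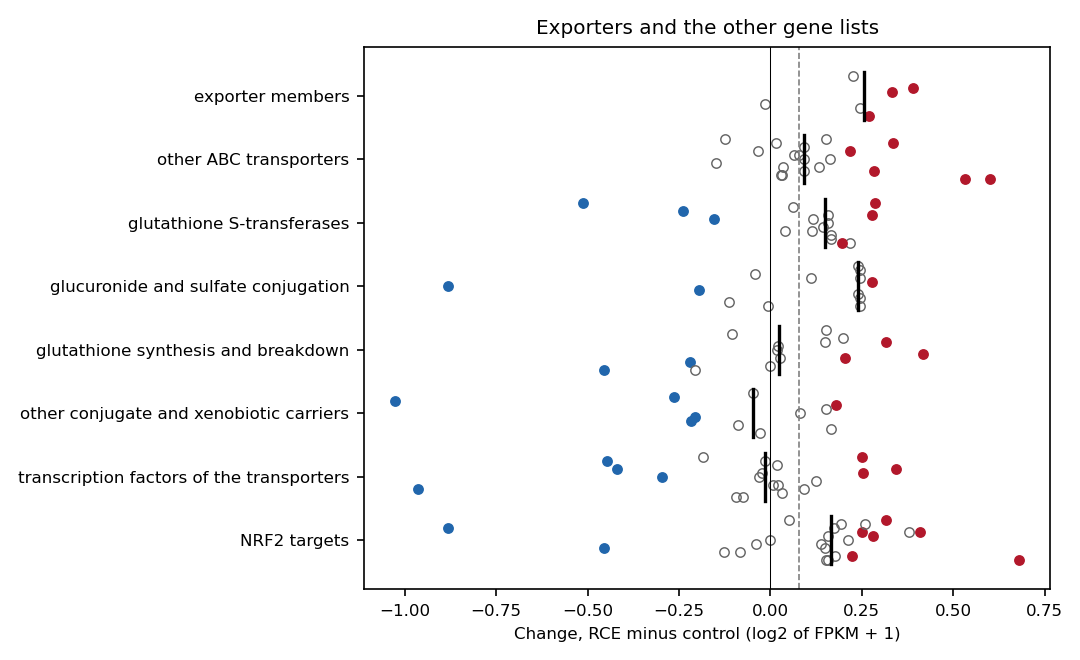
Log2 change of FPKM + 1, RCE minus control (x axis), of every tested gene of the exporter list and of 7 related lists. Filled red points were higher and filled blue points lower at an adjusted p below 0.05, open points did not pass, black bars are list medians and the dashed line is the median of all genes tested (0.08). The exporters show 3 filled red points and 0 blue, and Ank, at -1.03, is the leftmost point.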

How the data were processed

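The authors deposited a gene table in FPKM, a unit taken from the submitters' processing notes and the values. The notes list the build mm10 and the tools Cufflinks, Cuffdiff 2.2.1 and STAR 2.5.4, with no roles. All 21853 gene identifiers were found in GENCODE M21, which gave coordinates and exons. Depth was recovered from genes with 1 transcript of at most 3000 bases: values of 0.02 to 0.5 FPKM were whole fragments within 0.1 for 100% of 503 to 540 values per library, against a median of 15.2 to 16.3% at other depths. Fragments are not independent molecules, so depth covers counting error only.

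RCE and control libraries (n = 3 each) entered a limma 3.58.1 fit in R 4.3.3, with values as log2(FPKM + 1) and an intensity trend, over the 10870 genes averaging at least 1 FPKM. Tests were 2-sided with Benjamini-Hochberg adjustment over all genes and a threshold of 0.05. Members under the filter were compared by exact permutation. Groups share replicate numbers in the labels, whose meaning is not stated. Same-numbered libraries deviated together from their group means across genes (Pearson correlation 0.92, 0.62 and 0.68 for numbers 1, 2 and 3). They were treated as pairs only in the block alternative and in the differences within pairs. The fit described above had no block. The cross pairs of RCE replicate 2 with control replicate 3 (0.72) and of RCE replicate 3 with control replicate 2 (0.77) correlated more, so the deviations set number 1 apart and do not tell 2 and 3 apart. Coding sequences were aligned with MAFFT 7.526. Alternatives were pseudocounts of 0.1 and 0.5, no filter or a mean of 5 FPKM, quantile normalization, scaling by median of ratios, the block, no trend, each library left out, and both libraries numbered 1 left out. The text names all members, up to 4 genes with the smallest p of each list and the 5 genes closest to the member with the smallest p. Nfe2l2, Ahr and Trp53 were added after their values were seen. The members and lists were chosen with earlier results of these data known.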

Additional observations from a re-analysis of the deposited data

How the results depend on the processing

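Abcc4 was called higher in every setting tried. The count of exporters called higher, 3 of 6, was 5 with the replicate block and 5 without replicate 1 of both groups, and ran between 1 and 3 when single libraries were left out (1 without control replicate 3 or RCE replicate 2). No exporter was called lower in any setting. The change of Abcc1 was 0.19 with median-of-ratios scaling and ran from 0.23 to 0.33 with single libraries left out. That of Abcb1b was 0.23 with quantile normalization and ran from 0.28 to 0.38. The block brought calls of Abcc10 (0.23) and Abcg2 (0.24), as did leaving out replicate 1 (0.24 for Abcc10 and 0.23 for Abcg2), and with single libraries left out they ran from 0.18 to 0.29 and from 0.12 to 0.36. Abcc5, never called, was at 0.001 without replicate 1 and ran from -0.038 to 0.014 (0.014 without RCE replicate 1). Differences of mean FPKM ran from -0.0587 to 0.0223 for Abcc3 (0.001 without control replicate 3 and 0.0223 without RCE replicate 3). For Abcb1a they ran from -0.0528 to 0.0202 (0.0202 without RCE replicate 3, 0.0087 when RCE replicate 2 was left out, 0.0158 when control replicate 3 was) and were -0.056 without replicate 1. The block changed no call of Abcc1, Abcc4, Abcc5 or Abcb1b.

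Over all genes, 1910 higher and 736 lower calls became 867 and 485 with a mean of at least 5 FPKM, 924 and 1090 with median-of-ratios scaling, 785 and 857 with quantile normalization, 5060 and 1730 with the block, and 4364 and 1480 without replicate 1. They ran from 685 to 2040 and from 394 to 734 with single libraries left out. For the 112 related genes tested, 21 higher and 15 lower became 13 higher with a mean of at least 5 FPKM or median-of-ratios scaling, 56 and 24 with the block, and 54 higher without replicate 1, and ran from 10 to 30 and from 7 to 15. Of 25 related genes named for their small p, the call was lost in 34 of 369 repeats, all of them in the direction first found. Of the members under 1 FPKM, Abcc2 is limited by depth, with at most about 3 fragments in any library. Abcc3 had about 209 to 300 fragments per library and Abcb1a about 108 to 130.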

Other observations

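Among the related genes, the subunits of glutamate-cysteine ligase moved apart. The ratio of Gclm to Gclc FPKM was 1.17, 1.18 and 1.2 in RCE replicates 1, 2 and 3, against 0.667, 0.724 and 0.656 in control replicates 1, 2 and 3, without overlap. The ratio of Nqo1 to Nfe2l2 FPKM was 1.03, 1.4 and 1.48 in RCE replicates 1, 2 and 3, against 0.49, 0.648 and 0.669 in control replicates 1, 2 and 3. Both ratios were picked after the values were seen and are given as values only.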
